A study of Mus musculus with 8 samples.

Results

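The subunits of the chaperonin CCT, also called TRiC, were followed one by one between polysomal and non-polysomal RNA of mouse oocytes. The members were the table rows with the gene symbols Tcp1, Cct2, Cct3, Cct4, Cct5, Cct6a, Cct7 and Cct8, that is 8 of the 25574 genes in the table, and all 8 were present. All 8 also passed the filter on low values, which left 14292 genes for testing. Each gradient was loaded with 200 oocytes of 8 weeks old CD1 mice, an outbred stock, primed with PMSG, at the NEBD stage, when the nuclear envelope breaks down and meiosis resumes. The denuded oocytes had been held in IBMX during isolation, cultured without it for 180 min, and then kept in 0.1 mg/mL cycloheximide, which holds ribosomes on mRNA, for 10 min more. Lysates were separated on sucrose gradients by SSP-profiling, a polysome fractionation for scarce samples. The topmost fraction of each gradient was left out. Of the others, the lighter fractions, with ribosomal subunits, monosomes and stored mRNPs, formed the non-polysomal (NP) dataset. The heavier fractions formed the polysomal (P) dataset, with 4 libraries in each dataset. A gradient thus gave both an NP and a P library, and the tests below take the libraries as independent. The paper could not exclude that the fraction left out held some stored mRNPs, or that heavy stored particles sedimented with the polysomes. No genotype or drug differed between the datasets, so the comparison asks how the transcripts of 1 kind of cell divide between the pools. RNA was depleted of rRNA, amplified as a whole transcriptome and sequenced. All values below are FPKM, fragments per kilobase of gene length scaled to a fixed library size, unless another scale is named.

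CCT is a cytosolic folding machine built of back-to-back rings, each with a single copy of every one of the subunits. It takes up newly made or unfolded proteins in its cavity and releases them after ATP hydrolysis, and its best known clients are actin, the tubulins and proteins with WD40 propellers such as Cdc20. The subunits are paralogs with fixed places in the ring: Tcp1 (CCT1), Cct2, Cct4 and Cct5 form the side that binds ATP readily, while Cct3, Cct6a, Cct7 and Cct8 form the side that binds it weakly. Growing and maturing oocytes hold large stocks of tubulin for the meiotic spindle, and in oocytes at this stage transcription is silent, so new protein comes from stored mRNA.

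The start codon surroundings of the 8 mRNAs are shown because the comparison concerns ribosome loading, and initiation begins at this site. Each was read from the RefSeq mRNA with the longest coding sequence, on GRCm38.p6, from 9 bases before the start codon onwards. Capitals mark the base at position -3, the ATG and the base at position 4, counted from the A of the ATG as 1.
Tcp1: ttcctgAagATGGagggtcc
Cct2: tgaaatTagATGGcttccct
Cct4: aaggtcGccATGCcggagaa
Cct5: tcgtccAccATGGcgtccgt
Cct3: cgtgccGccATGAtgggcca
Cct6a: aggccaGccATGGcggcggt
Cct7: gcttccAagATGAtgcccac
Cct8: ggccgaGccATGGcgcttca

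These windows lie at chr17:12916557-12916576 (plus strand) for Tcp1, chr10:117063043-117063171 (minus) for Cct2, chr11:22990745-22990764 (plus) for Cct4 and chr15:31601695-31601714 (minus) for Cct5. Those of the other side of the ring lie at chr3:88297227-88297246 (plus) for Cct3, chr5:129787430-129787449 (plus) for Cct6a, chr6:85452113-85459119 (plus) for Cct7 and chr16:87495778-87495797 (minus) for Cct8. The windows of Cct2 and Cct7 cross an intron, and all others lie within 1 exon. A purine stood at position -3 in 7 of the 8, the exception being Cct2 with T, against 79.3% of 20968 RefSeq genes with an ATG start. G followed the ATG in Tcp1, Cct2, Cct5, Cct6a and Cct8, 5 of 8, against 49.5% of those genes. Both features were met by Tcp1, Cct5, Cct6a and Cct8, 4 of 8, against 39.5%.

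The mRNAs were similar in their coding part and differed in their ends. Coding sequences as aligned to GRCm38 had 1467 (Cct6a) to 1671 (Tcp1) bases, against a median of 1221 over all RefSeq genes. Only 91% of the Cct6a protein aligned to this build, so the length for Cct6a is that of the aligned part. The 3′ UTRs were short, with 128 bases in Cct5 and 663 in Cct8 as the extremes and a median of 680 over all genes. The 5′ UTRs ran from 81 bases in Cct8 to 617 in Cct7, with a median of 132 over all genes. Cytoplasmic polyadenylation elements are short U-rich motifs near the 3′ end through which stored oocyte mRNAs receive longer poly(A) tails. Searched as TTTTAT or TTTTAAT on the mRNA strand in the last 100 bases, they were found in 0 of the 8 members and in 18.1% of 18013 genes with a 3′ UTR of that length. The polyadenylation signal AATAAA was found in the last 50 bases of 5 of the 8 members, not in Cct3, Cct4 or Cct7, and in 65.7% of those genes. Only these letters in these windows were searched.

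Depth was moderate and uneven. Read numbers recovered from the steps between FPKM values were 188 to 1574 per library for Cct2, 661 to 9898 for Cct5 and 20 to 692 for Cct4, and they cover counting error only, since amplified reads are not independent molecules. The recovered number to which a library was scaled ran from 1299377 (NP replicate 2) to 7594637 (NP replicate 4). Of 14 oocyte marker genes none was at 0 in all libraries, although Figla was at 0 in P replicate 2, with summed values of 7506 to 14229 FPKM in NP and 9138 to 39284 in P. Of 16 cumulus and granulosa markers 7 were at 0 in all libraries (Ptx3, Npr2, Foxl2, Inhba, Fst, Has2 and Amhr2), and the sum was 15.3 to 141 FPKM in NP and 20.3 to 64.0 in P. Cyp19a1 (up to 75.2 FPKM), Nr5a2 (up to 61.4) and Cyp11a1 (46.4 in NP replicate 4) were present, and their part in the results was not tested. The 4 blood markers in the table were listed at 0 throughout. The study describes the gradients as independent biological replicates.

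Cct5 was the most abundant subunit transcript in both datasets, with a higher mean in NP. Cct7, Cct4, Cct2, Cct3 and Tcp1 had higher means in P, and Cct8 was at about the same level in both. FPKM are relative to each library, so amounts of a transcript in the pools were not measured, and fewer oocytes holding it and less of it per oocyte cannot be told apart. None of these differences between P and NP exceeded the spread between libraries by the tests used. Cct6a was at or near 0 in 7 of the 8 libraries. The composition of the set differed most for Cct5, whose share of the summed subunit FPKM was higher in every NP library than in any P library, by a narrow margin.

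**Figure D1:**
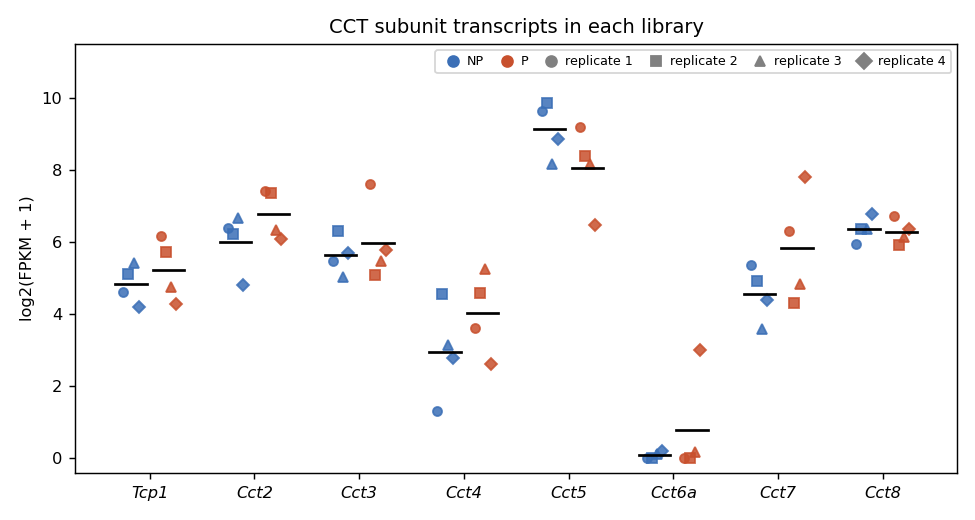
Level of each CCT subunit as log2(FPKM + 1) on the vertical axis, with subunits along the horizontal axis, NP libraries in blue and P libraries in red, 1 symbol shape per replicate number and black bars for the means of 4 libraries. Points of NP and P overlap for every subunit, Cct5 lies highest, and Cct6a lies near 0 except in P replicate 4.

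Among the subunits on the ATP-binding side, Cct5, the epsilon subunit, measured 801.7, 929.1, 288.0 and 464.0 FPKM in NP replicates 1 to 4. In P replicates 1 to 4 it measured 582.6, 336.5, 288.9 and 87.9 FPKM. NP replicates 1 and 2 were the highest of all and P replicate 4 the lowest. The datasets overlapped, since NP replicate 3 lay below P replicates 1 to 3 and NP replicate 4 lay below P replicate 1. The means were 621 ± 296 (SD, n = 4) in NP and 324 ± 203 in P, a ratio P/NP of 0.522. On the log2(FPKM + 1) scale the change was −1.08 ± 0.65 (SE), with a limma adjusted p of 0.576 and an exact permutation p of 0.20. Leaving out P replicate 4 brought the change to −0.55, and leaving out P replicate 1 brought it to −1.45.

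Cct2, the beta subunit, measured 82.5, 73.7, 100.5 and 27.0 FPKM in NP and 170.7, 163.1, 79.2 and 66.6 FPKM in P. P replicates 1 and 2 lay above all NP libraries, and P replicates 3 and 4 lay within the NP range. The mean was 1.69 times higher in P, 120 ± 54.6 against 70.9 ± 31.3 FPKM. The log2 change was 0.78 ± 0.62 (limma adjusted p = 0.651, exact permutation p = 0.257), and 0.37 without NP replicate 4.

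Tcp1, the alpha subunit for which the family is named, measured 23.6, 34.0, 41.7 and 17.5 FPKM in NP and 70.8, 52.0, 26.2 and 18.4 FPKM in P. Its libraries ordered much like those of Cct2, with P replicates 1 and 2 above NP and P replicates 3 and 4 inside its range. Between these members the centred log2 profiles differed by 0.38 (root mean square over 8 libraries), the smallest difference among the 28 pairs of subunits. The log2 change of Tcp1 was 0.39 ± 0.65 (limma adjusted p = 0.799, exact permutation p = 0.457), and it was 0.080 without P replicate 1. Tcp1 shares 645 bases with Mrpl18 and 1235 bases with Acat3 on the opposite strand. The paper describes libraries made from amplified cDNA with a DNA library kit and names no step that keeps the strand. Reads in stretches shared with an opposite-strand gene may thus come from either gene.

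Cct4, the delta subunit, was the lowest of this side of the ring, with 1.49, 22.5, 7.95 and 5.89 FPKM in NP and 11.3, 23.3, 37.1 and 5.16 FPKM in P. P replicate 3 was the only P library clearly above the highest NP library, NP replicate 2. Its reads numbered 20 in NP replicate 1 and 58 in P replicate 4, so these values are the least certain of the side. The mean was 2.03 times higher in P, and the log2 change was 1.07 ± 0.89 (limma adjusted p = 0.660, exact permutation p = 0.257). Without NP replicate 1 the change was 0.52, and without NP replicate 2 it was 1.60.

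On the other side of the ring, Cct8, the theta subunit, was the steadiest member. It measured 60.4, 82.0, 80.8 and 109.2 FPKM in NP and 104.5, 59.3, 69.1 and 81.0 FPKM in P. The libraries of the datasets interleaved, and the means were 83.1 ± 20.1 and 78.5 ± 19.5 FPKM. The log2 change was −0.08 ± 0.53 (limma adjusted p = 0.952, exact permutation p = 0.686), and its sign turned when NP replicate 4 or P replicate 2 was left out. Cct8 overlaps Usp16 on the opposite strand by 192 bases.

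Cct3, the gamma subunit, measured 43.6, 78.3, 31.7 and 51.4 FPKM in NP and 196.8, 32.8, 43.6 and 53.8 FPKM in P. P replicate 1 alone stood above the NP range, and the other 3 P libraries lay inside it. The log2 change of 0.36 ± 0.67 (limma adjusted p = 0.821, exact permutation p = 0.629) became −0.19 without P replicate 1. Outside the gene, 3 stretches of at least 300 bases with at least 85% identity to the Cct3 transcript were found in GRCm38. The longest lay at chr11:90859571-90861350 with 89.8% identity. Those at chr4:52900550-52901201 and chr4:52901630-52902906 lay close together and may be parts of 1 copy. Reads of Cct3 may thus be shared with such copies. Such stretches were also found for Tcp1 (2), Cct4 (1), Cct6a (1) and Cct7 (3), and for none of Cct2, Cct5 and Cct8.

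Cct7, the eta subunit, had the largest log2 change of the 8 on this scale. Cct4 was above it after quantile normalization (1.71 against 1.58) and by limma-voom on recovered reads. The same held without P replicate 4 (1.54 against 0.59) or P replicate 1 (1.20 against 1.09). It also held without NP replicate 2 (1.60 against 1.37) or NP replicate 3 (1.14 against 0.93). Cct7 measured 40.6, 29.5, 11.1 and 20.0 FPKM in NP and 79.0, 19.1, 27.6 and 225.4 FPKM in P. P replicates 1 and 4 lay above all NP libraries and the other P libraries lay within their range, so the mean ratio of 3.47 rested mostly on P replicate 4, which held 64.2% of the summed P value. The log2 change was 1.25 ± 0.80 (limma adjusted p = 0.598, exact permutation p = 0.257), and it rested in part on that library. Cct7 overlaps 1700040I03Rik on the opposite strand by 466 bases. The mean of 1700040I03Rik was 170 FPKM in NP and 28.3 in P, and its part in the values of Cct7 was not tested.

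Cct6a, the zeta subunit, measured 0, 0, 0.0859 and 0.165 FPKM in NP and 0, 0, 0.141 and 7.01 FPKM in P. In reads this was 0, 0, 1 and 2 in NP and 0, 0, 1 and 30 in P, so only P replicate 4 had more than 3 reads. The member passed the filter on low values through this library alone, and its fitted log2 change of 0.71 ± 0.56 (limma adjusted p = 0.650, exact permutation p = 0.714) depends on the pseudocount. The sequence of GRCm38 has a run of 50000 unknown bases at chr5:129794711-129844710 inside the gene. RefSeq aligned 94% of its Cct6a transcript and 91% of its protein to this build. The shortest length that gave whole reads for Cct6a, 1599 bases, was that of 1 GENCODE transcript, against 2173 for the aligned part of the RefSeq mRNA. The part of the gap and of the gene model in the low values was not tested. The testis paralog Cct6b and the related Cct8l1 were listed at 0 in all libraries. The other rows found by the symbol rule, which hold no subunit of the chaperonin, were Tcp10a, Tcp10b and Tcp10c, listed at 0, and Tcp11, Tcp11l1 and Tcp11l2, with means of 0.210, 3.77 and 3.89 FPKM in NP.

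Each library was next described by what each subunit contributed to the summed FPKM of the 8 subunits, a measure that does not depend on the scaling between libraries. Cct5 made up 76.1%, 74.4%, 51.3% and 66.7% of the sum in NP replicates 1 to 4. In P replicates 1 to 4 it made up 47.9%, 49.0%, 50.5% and 16.1%. All NP libraries lay above all P libraries, the nearest being NP replicate 3 and P replicate 3, and the mean was 67.1% ± 11.3 (SD, n = 4) in NP and 40.9% ± 16.6 in P, a difference of −26.2 percentage points. Leaving out 1 library at a time gave −17.9 (without P replicate 4) to −31.5 percentage points (without NP replicate 3). Computed per kilobase of the RefSeq mRNA, the shares were 52.4% to 77.2% in NP and 18.5% to 50.8% in P, again without overlap. This share was singled out after its values were seen and has no test. No member was free of overlap in FPKM itself, 0 of 8, where 6.28% of the 14292 genes were.

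The shares of the other 7 subunits overlapped between the datasets, and several of their differences rested on 1 library. Cct2 averaged 8.88% ± 6.22 of the sum in NP and 16.0% ± 5.27 in P, and Cct8 averaged 10.6% ± 5.18 and 11.0% ± 3.02. Cct3 averaged 5.86% ± 1.36 and 9.61% ± 4.85, Tcp1 3.73% ± 2.47 and 5.34% ± 1.79, and Cct4 1.05% ± 0.723 and 2.94% ± 2.63. The difference for Cct3 was 3.75 percentage points and 1.56 without P replicate 1, that for Cct4 was 1.89 and 0.71 without P replicate 3, that for Cct2 was 7.10 and 4.5 without P replicate 2, and that for Tcp1 was 1.61 and 0.87 without P replicate 2 or 2.85 without NP replicate 3. The difference for Cct8, 0.45 percentage points, ran from −1.17 to 2.16 with single libraries left out. The share of Cct7 was 1.98% to 3.85% in NP and 2.78%, 4.83%, 6.50% and 41.3% in P replicates 2, 3, 1 and 4. Its mean was 11.1 percentage points higher in P, and 1.93 points without P replicate 4. The P replicate with the lowest Cct5 share was also the one with the highest Cct7 share.

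**Figure D2:**
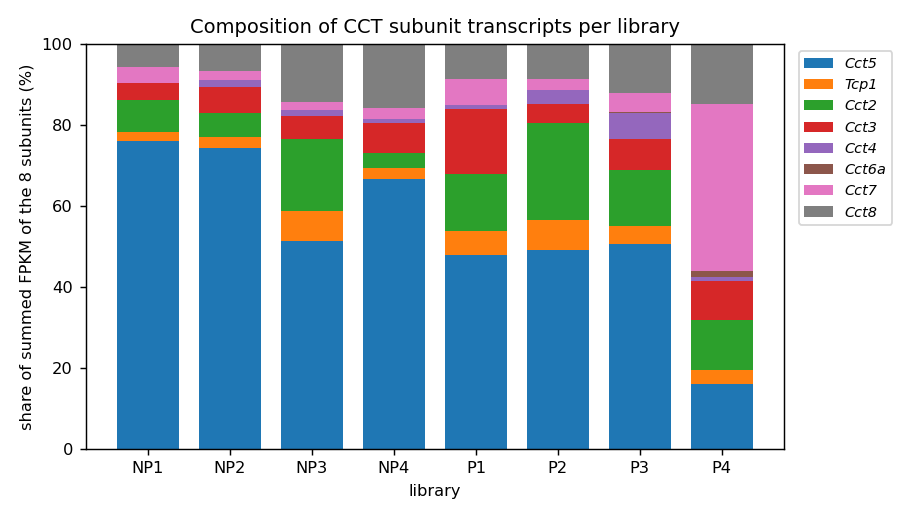
Share of each CCT subunit in the summed FPKM of the 8 subunits (vertical axis, %) for each NP and P library (horizontal axis), stacked to 100%. The blue Cct5 block spans 51.3% to 76.1% in NP and 16.1% to 50.5% in P, and Cct7 takes 41.3% in P replicate 4.

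The summed FPKM of the 8 subunits was 1054, 1249, 562 and 695 in NP and 1216, 686, 572 and 545 in P, so the totals overlapped, with P replicate 4 just below the lowest NP library. Without Cct5 the sums were 252, 320, 274 and 231 in NP and 633, 350, 283 and 457 in P. Of these, P replicates 1, 2 and 4 lay above all NP libraries and P replicate 3 lay within their range. Leaving out Cct5 was chosen with its values known. In the sum without Cct5, the share of Cct8 was 31.6% ± 10.7 in NP and 18.9% ± 3.72 in P, a difference of −12.7 percentage points in place of 0.45, with overlap between the datasets. The differences for Cct3 and Tcp1 became −1.99 and −0.86 percentage points, so the direction for these subunits depended on the denominator. P replicate 1 exceeded the own 8-library mean of a subunit on the log2 scale in 7 of the 8 members. The other P libraries did so in 3, 1 and 3 members (replicates 2, 3 and 4), and the NP libraries in 2, 5, 3 and 2.

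The subunits enter the chaperonin in equal numbers, and their transcripts were far from equal. By FPKM, which is per length, the order in NP was Cct5, Cct8, Cct2, Cct3, Tcp1, Cct7, Cct4 and Cct6a, from 621 to 0.0627 FPKM. Cct5 exceeded Cct8 by 2.77 ± 0.96 on the log2 scale (mean and SD of within-library differences) and in 4 of 4 libraries, and Cct4 exceeded Cct6a by 2.87 ± 1.34. The mean difference was smaller than its SD for the 5 other pairs of neighbours. In P the order by mean FPKM was Cct5, Cct2, Cct7, Cct3, Cct8, Tcp1, Cct4 and Cct6a, from 324 to 1.79 FPKM. Here Cct5 exceeded Cct2 by 1.26 ± 0.68, Cct8 exceeded Tcp1 by 1.05 ± 0.85 and Cct4 exceeded Cct6a by 3.23 ± 2.48, while the mean differences of the other neighbours were within their SD. Cct4 was above Cct6a in 3 of 4 P libraries, since in P replicate 4 Cct6a (7.01 FPKM) was above Cct4 (5.16 FPKM), and Cct6a had at most 1 read in the others. The place of Cct7 in this order rested on P replicate 4, where Cct7 (225.4 FPKM) was also above Cct5 (87.9 FPKM). Cct7 was above Cct3 in 1 of 4 P libraries, with a mean log2 difference of −0.16. Cct3 was likewise above Cct8 only in P replicate 1 (196.8 against 104.5 FPKM), with a mean log2 difference of −0.29. Setting Cct5 and Cct6a aside, the highest of the other 6 was 3.64 to 55.3 times the lowest within an NP library and 3.02 to 43.7 times within a P library.

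The order in the middle depended on the length used. For each member the shortest length that gave whole reads was taken, and every other fitting length up to 30000 bases was a whole multiple of it. The shortest lengths were longer than the RefSeq mRNA for Tcp1 (5030 against 2499 bases), Cct3 (4689 against 1957), Cct4 (4201 against 1966), Cct5 (2809 against 1895) and Cct8 (3088 against 2391), the same for Cct7 (2452) and shorter for Cct2 (1962 against 2070). Per kilobase of RefSeq mRNA, with the library scaling of the FPKM, Cct3 moved to the second place by mean in both datasets. It was at 123 ± 47.3 in NP and 196 ± 185 in P, where P replicate 1 was again the highest with 472. This place was within the spread. Cct3 exceeded Cct8 in NP by 0.15 ± 0.58 on the log2 scale, in 2 of 4 libraries. In P it exceeded Cct2 by 0.51 ± 1.08, in 3 of 4 libraries. Cct5 stayed first at 920 ± 439 in NP and 480 ± 301 in P. In the other places of NP stood Cct8 (107), Cct2 (67.2), Tcp1 (58.8), Cct7 (25.3), Cct4 (20.2) and Cct6a (0.0461). For Cct6a the length taken was that of the aligned part of the mRNA. The length cancels in a comparison of P with NP within a gene apart from the pseudocount, so the ratios above do not change with it.

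**Figure D3:**
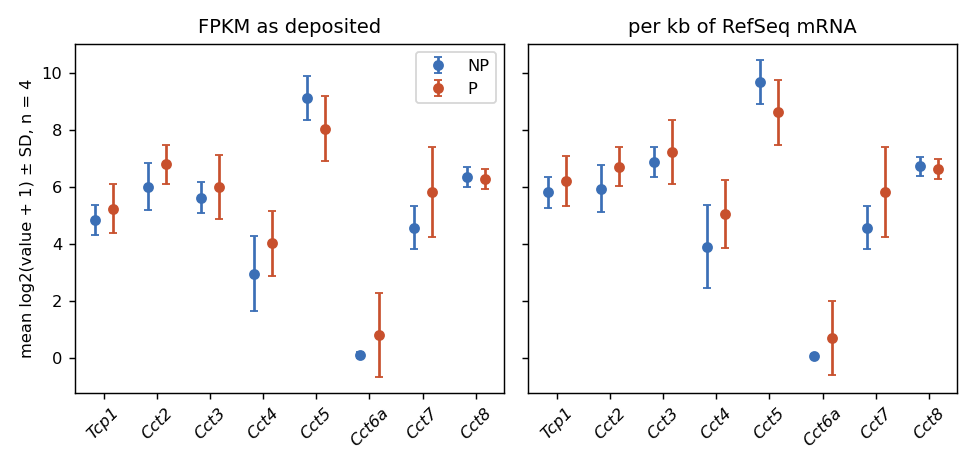
Mean of log2(value + 1) with SD (n = 4) for each subunit (horizontal axis) in NP (blue) and P (red), as deposited FPKM on the left and per kilobase of RefSeq mRNA on the right. Cct5 is highest and Cct6a lowest on both scales, and Cct3 has a mean of 123 in NP on the right scale before the log.

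The test of P against NP over all genes used limma on log2(FPKM + 1). Among the 8 subunits, 0 had an adjusted p below 0.1, against 0.021% of all genes tested (3 genes), and 0 had an unadjusted p below 0.05, against 9.95% (1422 genes). With limma-voom on recovered reads 0 of the 8 were called, against 1.59% of genes (227 of 14291). The median log2 change of all genes was −0.39, so a value of 0 lay above the middle of the genes. Fewer genes were detected in P, with 9139 to 11339 genes above 0 per library against 11703 to 13753 in NP. The part of this difference in the median, and in the place of the members relative to it, was not tested. Cct6a is left out of the member counts that follow, since it passed the filter only through P. Of the other 7 members 6, all but Cct5, were above the median of all genes and 5 were above 0. Over all 14292 genes tested 4083 were above 0, and 1731 of the 5639 genes with a mean above 10 FPKM. The median of the 7 members was 0.39 (0.55 with Cct6a), against −0.49 for these 5639 genes.

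**Figure D4:**
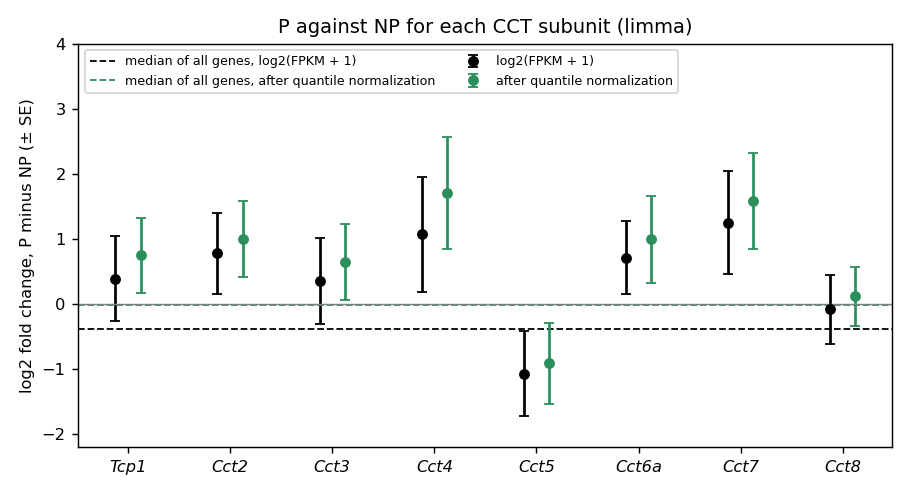
Log2 fold change of P minus NP with SE (vertical axis) for each subunit (horizontal axis) from limma, in black on log2(FPKM + 1) and in green after quantile normalization, with dashed lines at the median of all genes on each scale. Cct5 lies at −1.08 and −0.92, Cct8 changes sign (−0.08 and 0.11), and the other 6 lie above 0 on both.

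Scaling moved these values together. Quantile normalization moved the median of all genes to −0.02 and that of the 7 members to 0.75, with Cct5 at −0.92 and Cct8 at 0.11. Giving every library 1 common median FPKM moved the median of all genes to 0.21, that of genes above 10 FPKM to 0.75 and that of the 7 members to 1.69. On that scale 6 of the 8 members had an unadjusted p below 0.05, all but Cct5 and Cct6a, against 9.73% of all genes and 16.9% of those above 10 FPKM, and the change of Cct5 turned to 0.26 and that of Cct8 to 1.24. The adjusted p (limma) of each member stayed at 0.415 or more on that scale. The direction of a single subunit therefore refers to the scale it is given on, whereas the shares within a library do not.

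The partners and clients of the chaperonin gave no genes called at an adjusted p below 0.1 either. Prefoldin is the complex that hands unfolded actin and tubulin to CCT. Of its 5 genes in the table, 3 had changes above 0, the median was 0.41, and 1 had an unadjusted p below 0.05. This was Pfdn1, a beta-type prefoldin subunit, with 65.7, 113, 98.5 and 36.2 FPKM in NP and 0.988, 12.5, 14.2 and 0.347 FPKM in P. All NP libraries of Pfdn1 lay above all P libraries, and its log2 change was −3.91 ± 0.89 (limma adjusted p = 0.344). Vbp1, an alpha-type prefoldin subunit, had the highest change of this list, 0.92 ± 0.81.

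Cofactors that bind CCT, such as phosducin-like proteins, had a median of −0.15 over 5 tested genes and no unadjusted p below 0.05, with values from −0.50 for Txndc9 to 0.19 for Pdcl. Tubulin-folding cofactors, which take tubulin over from CCT, had a median of −0.17 over 7 genes and none with an unadjusted p below 0.05, with Tbcb at −1.17 and Tbce at 0.99. The mitochondrial chaperonin genes, which are more distant relatives, were at −0.50 (Hspd1) and 0.27 (Hspe1). The chaperonin-like genes of cilia, Mkks and Bbs10, were at 0.60 and 0.49.

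Among the clients, alpha and beta tubulins had a median of −0.58 over 13 genes, 4 of them above 0. The lowest was Tubb6, a beta-tubulin, at −1.81 ± 0.65 with 298.0 to 1435 FPKM in NP and 87.6 to 371.7 in P (limma unadjusted p = 0.0151, adjusted p = 0.416), and the highest was Tuba1b at 1.38 ± 0.67. Tubulin genes are close paralogs, so their reads may be split among them. Actins had a median of −0.15 over 4 genes. Actg2, a smooth muscle actin, had 8.09 to 37.0 FPKM in NP and was listed at 0 in all P libraries (limma unadjusted p = 0.000105, adjusted p = 0.299). It passed the filter on low values only through NP, the dataset where it was high, so its p is no independent support. Acta1 was at 1.08 ± 1.15. WD40 clients had a median of −0.43 over 6 genes, from Gnb2 at −1.66 ± 0.74 (limma unadjusted p = 0.0403, adjusted p = 0.487) to Gnb1 at 0.94 ± 0.82, both being G protein beta subunits.

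**Figure D5:**
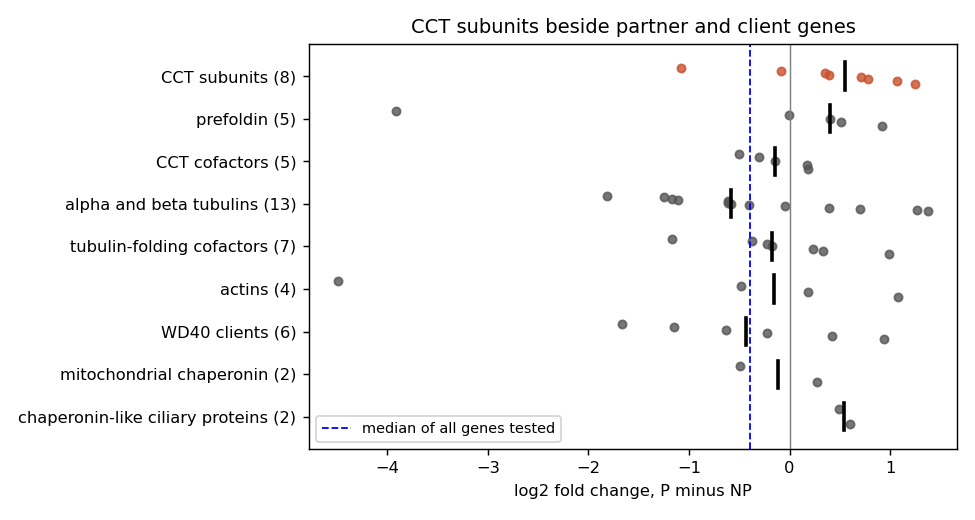
Log2 fold change of P minus NP (horizontal axis) of the CCT subunits (red) and of each list of partner and client genes (grey), 1 point per tested gene with the number of genes in brackets, black bars for list medians and a dashed blue line for the median of all genes tested. The median of the 8 subunits, Cct6a included, is 0.55, the tubulins' −0.58, and Pfdn1 (−3.91) and Actg2 (−4.49) lie far to the left of their lists. Actg2 passed the filter on low values only through NP.

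The genes whose profiles over the 8 libraries were most like those of the subunits were sought among 5639 genes with a mean above 10 FPKM, by the root mean square difference of centred log2(FPKM + 1). They were Nsf for Tcp1 (0.30), Rhot1 for Cct2 (0.26), Rrnad1 for Cct3 (0.37), Jam3 for Cct4 (0.54), Mcat for Cct5 (0.28), Per3 for Cct6a (0.30), Uchl1 for Cct7 (0.50) and CT954323.1 for Cct8 (0.22). The nearest to the mean profile of the 8 subunits were Rnf185 (0.26), D230025D16Rik (0.28) and Bcl2l10 (0.28). A flat profile would differ from that of Cct8 by 0.30 and from the mean profile by 0.36, so the small values for these do not show a shared pattern. The profile of Cct6a was set by the 30 reads of P replicate 4, so the value for Per3 does not show one either. The other values were each the smallest among 5639 genes and were not tested. Between subunits the differences ran up to 1.95 for Cct4 with Cct7 and 1.90 for Cct5 with Cct7, and the next smallest after Tcp1 with Cct2 was 0.64 for Cct3 with Cct8.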

How the data were processed

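The 8 libraries were grouped by their titles as 4 NP and 4 P libraries. The authors trimmed the paired reads with Trim Galore 0.4.1, checked them with FastQC 0.11.5, aligned them with Hisat2 2.0.5 on GRCm38 and made FPKM values, not log-transformed, with Seqmonk 1.40.0. FPKM values of the deposited table of all genes were used, and the authors' table of DESeq2 results, which holds their own comparison, was not used.

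Genes with a mean above 0.1 FPKM in at least 1 dataset were tested on log2(FPKM + 1) with limma 3.58.1 (R 4.3.3), with a mean trend, Benjamini-Hochberg adjustment over all genes and a threshold of 0.1. A fold change on this scale understates changes of low genes. Each member also had a 2-sided exact permutation test over all 70 assignments of libraries, whose smallest p is 0.0286. FPKM are not counts, hence the main test on the log scale. Reads were recovered as FPKM × length × library number, the shortest length giving whole numbers within 0.01 plus 2e-06 per read being taken, since for the members the other fitting lengths were multiples of it. Merged exon lengths gave whole reads for 6978 genes, a single transcript length for 929 and a searched length for 7677. Copies were sought with blastn, and mRNA features in RefSeq. The limma fit was tested on simulated data.

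The members and the lists of partners and clients were chosen with earlier results of these data known. Named were the members, rows overlapping them or with like symbols, the genes with the highest and lowest change of each list, and the nearest profiles. Alternatives were the pseudocount, the filter, the scaling, the replicate block, leaving out each library and, added after the data were seen, limma-voom on recovered reads, lengths of RefSeq mRNAs and leaving out Cct6a. Shares were also taken in the sum without Cct5.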

Additional observations from a re-analysis of the deposited data

Results flagged for a closer look

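The levels of Cct3 and Cct6a in 1 library each stood far from the other libraries of their dataset. The measure was the gap in FPKM to the nearest library divided by the whole range (Dixon's criterion). Chance meets it in about 1 of 20 groups where values are normally distributed, which FPKM need not be. The criterion was not applied on the log2 scale, where high values stand out less. The 16 groups formed by the 8 subunits and both datasets were examined. Cct3 in P replicate 1 measured 196.8 FPKM, with a gap of 0.872 of the range, and it rested on 4337 reads. Cct6a in P replicate 4 measured 7.01 FPKM, with a gap of 0.98 of the range, and it rested on 30 reads. In the same library Cct7 was at its highest and Cct5 at its lowest value.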

How the results depend on the processing

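The call of 0 subunits at an adjusted p below 0.1 held under every alternative run, and the number with an unadjusted p below 0.05 was 0 except with 1 common median FPKM per library (6) and when single libraries were left out (0 to 1, Cct5 without P replicate 1 and Cct7 without P replicate 2). The 3 genes called over the whole table became 5 with a pseudocount of 0.1, 5 with a mean above 1 FPKM, 0 without a filter on low values, 0 after quantile normalization, 0 with 1 common median, 0 to 5 with single libraries left out and 227 by limma-voom on recovered reads, of which 225 were higher in NP. Changes that reversed were those of Cct3 without P replicate 1 (−0.19, the lowest of −0.19 to 0.66 with single libraries left out), of Cct5 with 1 common median (0.26) and of Cct8 after quantile normalization (0.11), with 1 common median (1.24), without NP replicate 4 (0.058) and without P replicate 2 (0.040), in a range of −0.23 to 0.058 with single libraries left out. The cause was not tested. Each gradient gave both an NP and a P library and the replicate numbers are shared by the datasets, but no source used here says that the same number marks the same gradient, and the exact permutation tests use no pairs. Deviations of same-numbered libraries correlated at 0.139, 0.0518, 0.251 and 0.155 over 11374 genes, and every library correlated best with its own number except NP replicate 2, which did so with P replicate 1 (0.136). With the replicate block 1 gene was called and 0 subunits, Cct5 having an unadjusted p of 0.0573 (limma). Without P replicate 4 Cct6a failed the filter and was not tested. Low read numbers limit Cct4 and Cct6a most.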
